A study of Mus musculus with 16 samples.

Results

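The genes described here make cholesterol, control that synthesis and move sterols. They are 31 genes chosen by name: 20 enzymes of the mevalonate and sterol pathway, 5 genes of the SREBP control circuit (Srebf1, Srebf2, Insig1, Insig2 and Scap), the sterol carriers Stard4 and Npc1, the LXR export genes Abca1, Abcg1 and Mylip, and Lpin1. Erg28, a membrane protein that tethers enzymes of the pathway, is counted among the 20. All 31 were found by symbol among the 55356 identifiers of the count table, and all 31 were among the 19156 genes with enough counts to be tested. Their RNA was measured in cultured embryonic dorsal root ganglion neurons, the sensory neurons of the body wall and limbs, from mice labelled CD1, an outbred stock, with no engineered allele named. The cultures grew in nerve growth factor with uridine and fluorodeoxyuridine, the latter acting against dividing cells, and were treated at day 6 in vitro. In the DMSO group the solvent was given at both steps. In the nocodazole group DMSO was followed after 15 min by 200 nM nocodazole, a drug that takes microtubules apart. In the inhibitor group 500 nM GNE3511, which blocks the axon injury kinase DLK (dual leucine zipper kinase), was followed by DMSO. In the combined group the inhibitor was followed by nocodazole, and the second treatment lasted 16 h in each group. Each group had 4 libraries, listed below in the order of replicates 1 to 4. Whether replicates were separate cultures or animals is not in the labels. The p-values therefore measure only how these libraries vary, which may be technical. There was 1 inhibitor at 1 dose, so effects through DLK and through other targets cannot be told apart.

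Cholesterol synthesis starts from acetyl-CoA, runs through mevalonate and farnesyl diphosphate to squalene, and ends with a chain of sterol-modifying steps. Its genes are driven by SREBP2, a transcription factor made as a membrane protein in the endoplasmic reticulum. When sterols are scarce, its escort SCAP carries it to the Golgi, where proteases free the active part. When sterols are plentiful, INSIG proteins hold the SCAP complex back. LXR receptors sense oxysterols and act on the other side of the balance, switching on the exporters ABCA1 and ABCG1 and MYLIP, a ubiquitin ligase that removes lipoprotein receptors. Neurons need membrane sterol to grow axons, and embryonic neurons make cholesterol themselves.

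Levels are given as CPM, counts divided by a scaled library size, which compare a gene between libraries and not 1 gene with another. A change is a log2 fold change with its standard error (SE) from an edgeR quasi-likelihood fit to all 16 libraries. A gene was called when its Benjamini-Hochberg adjusted p over all 19156 genes was below 0.05. Libraries held 30987962 to 43321421 counts, and the standard error of a change was 0.144 to 0.145 at the median gene (0.204 for the interaction). In bulk RNA, fewer cells of a type and less RNA per cell cannot be told apart. Replicate 1 of the combined group stood apart: its score on the first principal component was 10.4, where the other 3 of its group scored -31.4 to -28.4 and the nocodazole group 59.5 to 69.7. Transcripts of the mitochondrial genome took 1.71% of its counts, against 0.865% to 1.09% in the other 3. They took 1.39% and 1.78% in replicates 2 and 3 of the inhibitor group and 0.765% to 1.78% over all libraries. Results that rest on that replicate are given with and without it. The 8 sensory neuron markers summed to between 5600 and 6940 CPM. After nocodazole Isl1 (-0.55), Pou4f1 (-0.55) and Scn9a (-0.49) were among those called lower, and Avil was called higher (0.64). From nocodazole to the combined group 3 were called higher (Isl1 at 0.74, Pou4f1 at 0.49 and Scn9a at 0.47). The interaction was called above 0 for the same 3 markers, at 0.66, 0.57 and 0.42, and without combined replicate 1 for 5 markers above 0 and 1 below. The part of these markers in the results was not tested. Of the 8 Schwann and satellite glia markers, S100b made up nearly all of the summed 24.7 to 106 CPM. Sox10 was at most 0.407 CPM. The summed fibroblast markers were 2.11 to 5.07 CPM in DMSO, 5.35 to 8.07 in nocodazole, 2.04 to 4.39 in inhibitor and 1.4 to 2.45 in the combined group, and those of macrophages stayed between 1.39 and 3.39 CPM.

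The enzymes of cholesterol synthesis had their highest average level when nocodazole was given on top of the DLK inhibitor. In that combined group 16 of 20 enzymes were called higher than after nocodazole alone, where 17.7% of all tested genes were, and 13 of 20 were called higher than in DMSO, where 8.26% of all genes were. In the first of these comparisons 3 of the 8 sensory neuron markers were also called higher, as given above. For either drug alone against DMSO most enzymes were not called. Averaged over the 20 enzymes, the log2 level relative to the DMSO mean was 0.12, 0.11, -0.22 and -0.02 in the DMSO libraries and 0.07, 0.06, -0.10 and -0.15 in the nocodazole libraries. It was 0.16, -0.16, -0.09 and 0.28 in the inhibitor libraries and 0.19, 0.70, 0.73 and 0.61 in the combined libraries. Replicates 2 to 4 of the combined group thus lay above all 12 libraries of the other groups, and replicate 1 lay below inhibitor replicate 4. Within the inhibitor group the lower averages were those of replicates 2 and 3, which had the higher mitochondrial shares. In the nocodazole group the higher averages, replicates 1 and 2, went with the higher shares (1.36% and 1.50%, against 0.875% and 0.977%). The part of that share in the results was not tested. Without inhibitor replicates 2 and 3 and combined replicate 1, a selection made after the data were seen, 18 of 20 enzymes were called higher and 1 lower by the inhibitor in the presence of nocodazole, where 37.6% of all genes were called (18.9% higher and 18.7% lower). In the interaction 14 were then called above 0, where 14.9% of all genes were called (7.93% above and 6.96% below).

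**Figure D1:**
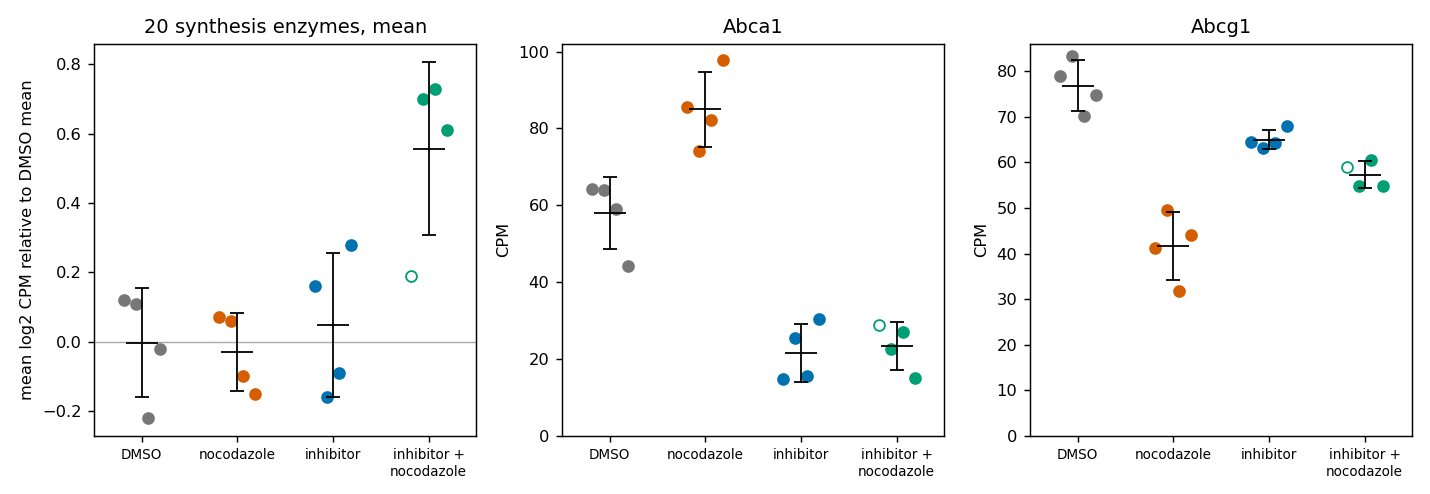
Mean log2 CPM of the 20 synthesis enzymes relative to DMSO, and CPM of Abca1 and Abcg1, in each of the 16 libraries, by group; the line is the group mean, the bars are the SD of 4 libraries, and the open point is replicate 1 of the combined group. The enzyme mean reached 0.61 to 0.73 in combined replicates 2 to 4, and Abca1 was at most 30.3 CPM in the 8 libraries with inhibitor.

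Counts of edgeR calls are read against the share of all genes called in the same comparison. Counts at an unadjusted p below 0.05 have no such share here, since it was not counted over all genes. The shares given are those of edgeR at the adjusted p. Neither the unadjusted counts nor the DESeq2 counts can be set against them. DESeq2 called 3120 of 17759 genes for the inhibitor against DMSO, higher or lower. It called 127 of 16396 for the combined group against inhibitor alone and 4061 of 19795 for the interaction. For nocodazole against DMSO, 37.5% of all genes were called (18.6% higher and 19% lower), and of the 20 enzymes 2 were called higher and 1 lower, with a median log2 change of -0.03 and 8 above 0. For the inhibitor against DMSO, 13% of all genes were called (5.78% higher and 7.24% lower), and 2 enzymes were called higher and none lower by edgeR (3 and 1 at an unadjusted p below 0.05, 2 and 0 by DESeq2), with a median of 0.02. For the combined group against inhibitor alone, 0.0835% of all genes were called, 16 genes in all (0.0783% higher and 0.00522% lower). In that comparison 1 enzyme was called higher and none lower by edgeR (19 and 0 at an unadjusted p below 0.05, 12 and 0 by DESeq2). All 20 had a change above 0, the median was 0.47, and 6 enzymes had all 4 combined libraries above all 4 inhibitor libraries, where 3.28% of all genes had groups that did not overlap. The combined group against nocodazole alone gave the most enzyme calls of the 4 pairwise comparisons of the design: 16 higher and 1 lower, where 33.9% of all genes were called (17.7% higher and 16.2% lower). The median enzyme change there was 0.67, and 12 enzymes had all combined libraries above all nocodazole libraries and 1 had them all below, where 28.5% of all genes did not overlap. Against DMSO, the combined group had 13 enzymes called higher and none lower by edgeR (16 and 0 at an unadjusted p below 0.05), with a median of 0.47, where 16.7% of all genes were called (8.26% higher and 8.48% lower). The interaction, the nocodazole change with inhibitor minus the change without it, was called above 0 for 11 enzymes and below 0 for none by edgeR (17 and 0 at an unadjusted p below 0.05, 13 and 0 by DESeq2), where 18.7% of all genes were called (9.52% above and 9.2% below). The median change over all genes was between 0.00 and 0.03 in each comparison. The comparisons share libraries, since each group enters several of them, so they are not independent of each other.

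**Figure D2:**
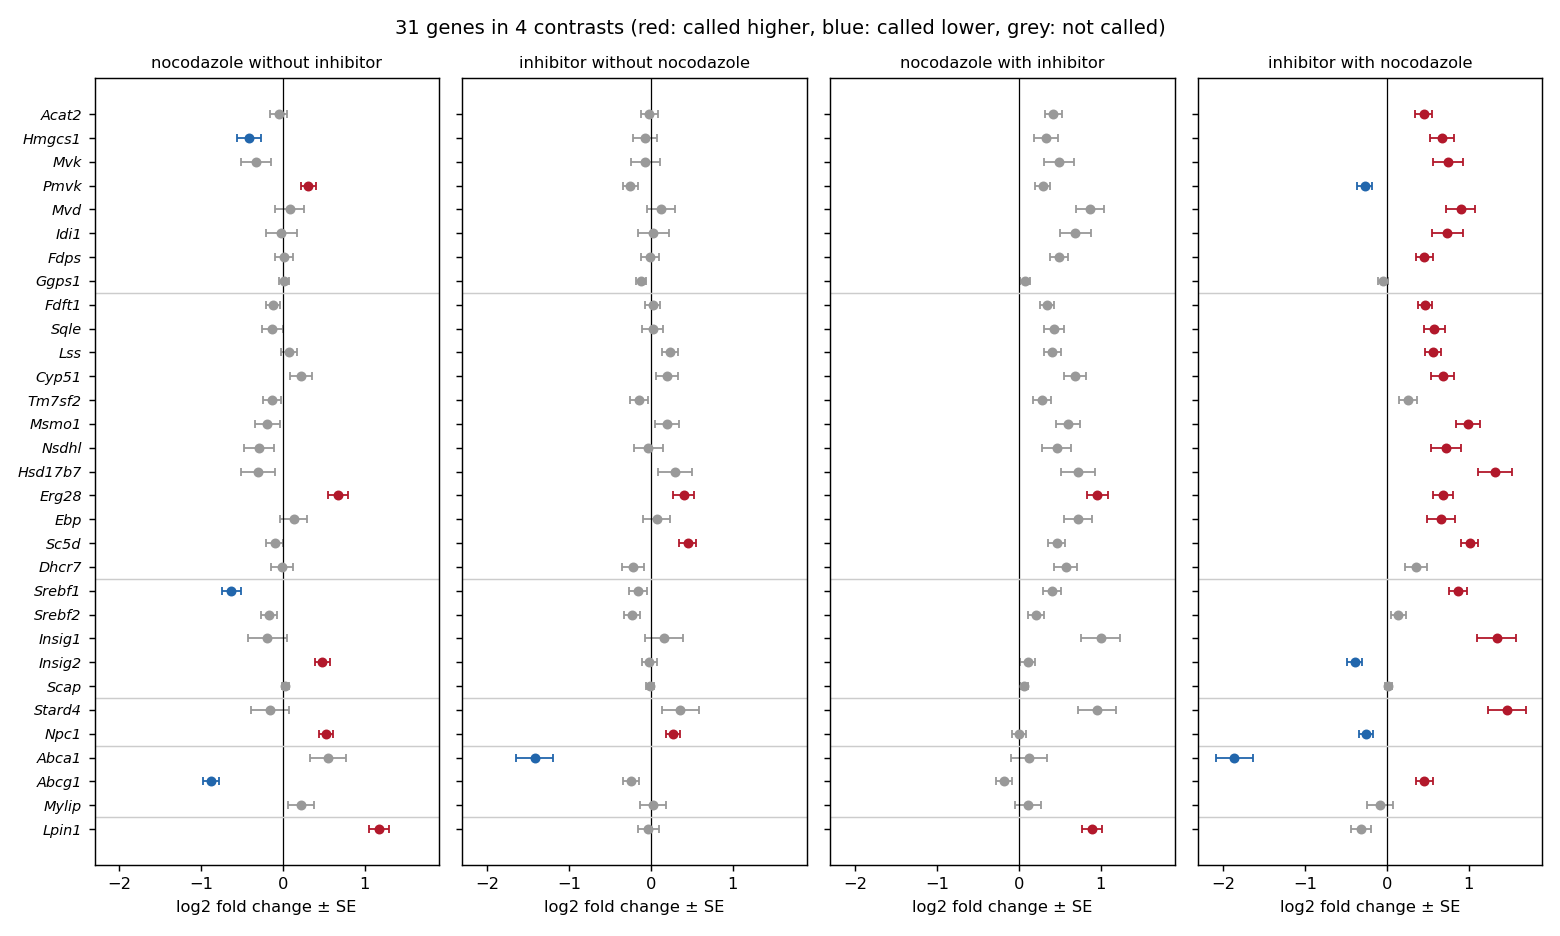
Log2 fold change of each of the 31 genes (rows, grouped by role) in the 4 pairwise comparisons (panels); points are estimates, bars the SE, and red or blue marks genes called higher or lower (edgeR adjusted p below 0.05). The 20 enzyme rows are mostly grey for either drug alone, while 16 are red and 1 is blue for the inhibitor with nocodazole.

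The promoters of some of these genes are printed because their transcripts were called higher in the combined group than after nocodazole alone. That of Abca1, which was called lower in that comparison, is printed for contrast. RefSeq promoters (GRCm38.p6, a build other than that of the counts) were found for 25 of the 31 genes. Those of Fdps, Fdft1, Sqle, Stard4, Npc1 and Abcg1 were not matched. The 250 bases before each start were searched on both strands for TCACNCCAC, a sterol regulatory element (SRE), for CCAAT, the box bound by NF-Y, a partner of SREBPs, for the GC box GGGCGG, and for the DR4 direct repeat of the kind LXR binds. The fixed letters of no motif contain another motif. CCAAT was in 20 of the 25 and in 15 of the 17 matched enzymes, against 37.5% of 27025 genes. GGGCGG was in 22 of the 25, against 35.4% of genes, and the SRE letters in 1, against 1.22%. The direct repeat was in none of the 25 and in 0.0148% of genes. A match describes letters in the window and is no evidence of binding. Each sequence runs 5′ to 3′ on the gene's strand, ends before the start site, and leaves out bases that an annotated exon covers. Capitals mark CCAAT (or ATTGG, its reverse) and the SRE.
Hmgcs1, chr13:119690101-119690350, plus strand: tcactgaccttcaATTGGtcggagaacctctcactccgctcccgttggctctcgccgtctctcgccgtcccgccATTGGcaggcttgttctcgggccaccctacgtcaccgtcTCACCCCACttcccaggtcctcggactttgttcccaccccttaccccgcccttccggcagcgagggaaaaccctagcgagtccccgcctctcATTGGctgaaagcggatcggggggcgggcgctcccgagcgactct
Mvk, chr5:114444061-114444268, plus strand: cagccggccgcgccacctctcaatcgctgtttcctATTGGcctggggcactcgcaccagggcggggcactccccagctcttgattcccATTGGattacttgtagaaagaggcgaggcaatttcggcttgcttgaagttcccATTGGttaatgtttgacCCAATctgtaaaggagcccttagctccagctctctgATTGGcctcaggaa
Mvd, chr8:122443423-122443672, minus strand: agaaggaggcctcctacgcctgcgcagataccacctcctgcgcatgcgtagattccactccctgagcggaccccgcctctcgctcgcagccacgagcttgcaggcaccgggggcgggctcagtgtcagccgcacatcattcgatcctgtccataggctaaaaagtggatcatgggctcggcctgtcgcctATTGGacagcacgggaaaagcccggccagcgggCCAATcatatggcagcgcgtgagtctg
Hsd17b7, chr1:169969242-169969408, minus strand: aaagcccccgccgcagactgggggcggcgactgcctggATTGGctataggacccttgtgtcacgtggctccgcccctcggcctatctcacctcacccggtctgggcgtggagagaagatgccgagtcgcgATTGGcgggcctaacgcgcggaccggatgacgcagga
Insig1, chr5:28071162-28071362, plus strand: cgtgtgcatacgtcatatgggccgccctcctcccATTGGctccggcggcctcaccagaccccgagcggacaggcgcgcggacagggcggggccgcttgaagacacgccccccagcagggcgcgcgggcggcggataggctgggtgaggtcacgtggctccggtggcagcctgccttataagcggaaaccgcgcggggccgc
Abca1, chr4:53159896-53160145, minus strand: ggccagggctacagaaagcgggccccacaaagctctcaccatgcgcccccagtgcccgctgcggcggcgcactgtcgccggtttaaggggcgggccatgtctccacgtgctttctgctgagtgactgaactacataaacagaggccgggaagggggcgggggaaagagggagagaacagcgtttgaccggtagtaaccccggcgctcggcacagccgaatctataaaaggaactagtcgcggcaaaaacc
In the stretches printed, Hmgcs1 held 3 CCAAT boxes and the SRE TCACCCCAC, Mvk held 5 boxes, Mvd and Hsd17b7 held 2 each, Insig1 held 1, and Abca1 held none of either motif. The searched window of Hsd17b7 held 1 more box, in the bases left out.

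In the mevalonate steps, Hmgcs1 (ENSMUSG00000093930), which joins acetyl-CoA units into HMG-CoA, had 1838, 1831, 1344 and 1594 CPM in the DMSO libraries, 1301, 1453, 1059 and 1168 in the nocodazole libraries, 1675, 1369, 1370 and 1897 in the inhibitor libraries and 1510, 2137, 2362 and 1934 in the combined libraries. It was lowest in the nocodazole group, although nocodazole replicate 2 lay above DMSO replicate 3, and 3 of 4 combined libraries lay above every other library. After nocodazole alone Hmgcs1 fell, and its log2 fold change was -0.41 ± 0.145 (SE, edgeR adjusted p = 0.0358). Leaving out DMSO replicate 1, 2 or 4 or nocodazole replicate 1, 3 or 4 ended that call, with edgeR adjusted p of 0.0904, 0.0966, 0.055, 0.0554, 0.0913 and 0.0734. From nocodazole alone to the combined group it rose by 0.67 ± 0.146 (SE, edgeR adjusted p = 0.00181), and the interaction was 0.74 ± 0.205 (edgeR adjusted p = 0.0198). Against DMSO the combined group was at 0.27 (edgeR adjusted p = 0.232), and at 0.38 (edgeR adjusted p = 0.0758) without combined replicate 1. Neither was called.

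Mvk (ENSMUSG00000041939), the kinase that phosphorylates mevalonate, had 129, 136, 97.7 and 124 CPM in the DMSO libraries, 95.1, 82.0, 106 and 104 in the nocodazole libraries, 133, 91.6, 96.1 and 141 in the inhibitor libraries and 101, 186, 184 and 178 in the combined libraries. Combined replicates 2 to 4 were above every other library, and replicate 1 lay within the nocodazole range. The combined group rose against nocodazole alone by 0.75 ± 0.18 (SE, edgeR adjusted p = 0.004), and the interaction was 0.82 ± 0.253 (edgeR adjusted p = 0.033). With nocodazole alone the value was -0.33 ± 0.179 (edgeR adjusted p = 0.161), which was not called. Against DMSO the combined group was at 0.42 (edgeR adjusted p = 0.125), also not called. Without combined replicate 1 that value was called, at 0.59 (edgeR adjusted p = 0.0105).

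Pmvk (ENSMUSG00000027952), the next kinase of the chain, was highest after nocodazole alone: 59.5, 65.0, 58.6 and 61.1 CPM in the DMSO libraries, 73.2, 77.4, 79.0 and 72.4 in the nocodazole libraries, 50.9, 42.3, 48.5 and 63.4 in the inhibitor libraries and 55.2, 65.8, 64.5 and 64.9 in the combined libraries. All 4 nocodazole libraries were above every other library. It rose after nocodazole by 0.31 ± 0.0933 (SE, edgeR adjusted p = 0.0162) and was lower in the combined group than in nocodazole alone, at a log2 fold change of -0.27 ± 0.0933 (SE, edgeR adjusted p = 0.0333). The first call was lost without nocodazole replicate 3 (edgeR adjusted p = 0.059). The second was lost without nocodazole replicate 2 (0.0694) or 3 (0.0763), or without combined replicate 1 (0.0908) or 4 (0.0512). The interaction of Pmvk was -0.02 ± 0.132 and was not called.

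Of the other mevalonate genes, Mvd, the decarboxylase that makes isopentenyl diphosphate, rose in the combined group against nocodazole alone by 0.90 ± 0.174 (SE, edgeR adjusted p = 0.000723). Acat2, the cytosolic thiolase, rose by 0.45 ± 0.104 (edgeR adjusted p = 0.00289), and Idi1, the isomerase of isopentenyl diphosphate, by 0.74 ± 0.19 (edgeR adjusted p = 0.00621). Fdps, the farnesyl diphosphate synthase, rose by 0.46 ± 0.107 (edgeR adjusted p = 0.00291). For Acat2, Mvd and Fdps the interaction was also called, at 0.47 ± 0.147, 0.79 ± 0.245 and 0.47 ± 0.151. Ggps1, which makes geranylgeranyl diphosphate for protein prenylation and thus leads away from sterols, was called in no comparison, with log2 changes from -0.12 to 0.07 and 33.2 to 41.7 CPM over all 16 libraries.

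At the entry to the sterol branch, Fdft1 (ENSMUSG00000021273), the squalene synthase, had 272, 263, 220.1 and 251 CPM in the DMSO libraries, 242, 247, 218 and 223 in the nocodazole libraries, 262, 236, 236 and 286 in the inhibitor libraries and 274, 328, 359.5 and 328 in the combined libraries. Combined replicates 2 to 4 were above every other library, and combined replicate 1 lay above all 4 nocodazole libraries. Fdft1 rose against nocodazole alone by 0.47 ± 0.0872 (SE, edgeR adjusted p = 0.000504), and its interaction was 0.45 ± 0.123 (edgeR adjusted p = 0.0178). Sqle, the squalene epoxidase, rose in the same comparison by 0.58 ± 0.126 (edgeR adjusted p = 0.00191), and Lss, which folds the epoxide into lanosterol, by 0.56 ± 0.0991 (edgeR adjusted p = 0.000349). The interaction was called for Sqle (0.56 ± 0.178) and not for Lss (0.33 ± 0.14, edgeR adjusted p = 0.109).

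Cyp51 (ENSMUSG00000001467), the lanosterol demethylase, had 179, 175, 134 and 154 CPM in the DMSO libraries, 209, 207, 173 and 157 in the nocodazole libraries, 197, 163, 162 and 215 in the inhibitor libraries and 227, 325, 341 and 298 in the combined libraries. The combined libraries did not overlap with those of any other group. Cyp51 rose against nocodazole alone by 0.68 ± 0.135 (SE, edgeR adjusted p = 0.001) and against DMSO by 0.89 ± 0.136 (edgeR adjusted p = 0.000366). Against inhibitor alone the value was 0.69 ± 0.135 (edgeR adjusted p = 0.0783), which was not called.

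Msmo1 (ENSMUSG00000031604), the sterol C4-methyl oxidase, had 120.0, 114, 88.9 and 96.3 CPM in the DMSO libraries, 107, 116, 77.2 and 68.2 in the nocodazole libraries, 127, 108, 108 and 137 in the inhibitor libraries and 152, 193, 198 and 187 in the combined libraries. All combined libraries were above all other libraries, and nocodazole replicates 3 and 4 were the lowest of the 16. The rise against nocodazole alone was 0.99 ± 0.15 (SE, edgeR adjusted p = 8.91e-05) and the interaction 0.79 ± 0.211 (edgeR adjusted p = 0.0162).

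Nsdhl (ENSMUSG00000031349), the dehydrogenase that acts after Msmo1, had 118, 133, 95.4 and 112 CPM in the DMSO libraries, 95.0, 79.0, 98.6 and 102 in the nocodazole libraries, 127, 85.4, 95.9 and 139.6 in the inhibitor libraries and 95.9, 171, 186 and 163 in the combined libraries. Combined replicate 1 lay among the nocodazole libraries, and combined replicates 2 to 4 lay above all other libraries. The rise against nocodazole alone was 0.72 ± 0.182 (SE, edgeR adjusted p = 0.00587), and the interaction of 0.75 ± 0.257 (edgeR adjusted p = 0.0529) was not called. It was called without combined replicate 1, at 0.92 (edgeR adjusted p = 0.00306), DMSO replicate 3 (0.0439), inhibitor replicate 1 (0.0498) or inhibitor replicate 4 (0.0266). Against DMSO the combined group was at 0.43 (edgeR adjusted p = 0.119) for Nsdhl, which was not called. Without combined replicate 1 that value was called, at 0.60 (edgeR adjusted p = 0.0106). Hsd17b7, the reductase of the same demethylation complex, rose against nocodazole alone by 1.32 ± 0.209 (edgeR adjusted p = 0.000123), the largest value among the 20 enzymes, with an interaction of 1.03 ± 0.291 (edgeR adjusted p = 0.0218).

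Erg28 (ENSMUSG00000021252), a membrane protein that tethers the demethylation enzymes and is counted with them here, was the 1 gene of the 20 called higher under each drug alone: 19.7, 17.5, 15.9 and 16.0 CPM in the DMSO libraries, 30.4, 35.2, 23.0 and 21.5 in the nocodazole libraries, 22.5, 22.7, 21.9 and 24.3 in the inhibitor libraries and 40.7, 48.6, 46.2 and 42.6 in the combined libraries. Each treated group lay wholly above DMSO, and the combined libraries were above all others. The log2 fold change was 0.67 ± 0.126 (SE, edgeR adjusted p = 0.000505) for nocodazole, 0.40 ± 0.126 (edgeR adjusted p = 0.0437) for the inhibitor and 1.37 ± 0.126 (edgeR adjusted p = 8.92e-06) for the combined group against DMSO. Erg28 was also the 1 gene of the 20 called when nocodazole was added to the inhibitor, at 0.96 ± 0.124 (edgeR adjusted p = 0.00644). Its interaction of 0.29 ± 0.176 was not called. The call for the inhibitor alone was kept in 5 of 16 fits that left out 1 library. It was lost without DMSO replicate 2, 3 or 4, nocodazole replicate 1, any inhibitor replicate or combined replicate 2, 3 or 4, with edgeR adjusted p from 0.0505 to 0.129.

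Sc5d (ENSMUSG00000032018), the desaturase near the end of the pathway, was the other gene of the 20 called for the inhibitor alone: 114, 111, 88.4 and 98.8 CPM in the DMSO libraries, 109, 102, 90.3 and 85.5 in the nocodazole libraries, 152, 126, 135 and 151 in the inhibitor libraries and 158, 209, 209.9 and 200.1 in the combined libraries. The inhibitor libraries were above all DMSO and nocodazole libraries, and the combined libraries were above all of these. The log2 fold change was 0.45 ± 0.105 (SE, edgeR adjusted p = 0.0104) for the inhibitor without nocodazole and 1.01 ± 0.105 (edgeR adjusted p = 2.09e-06) with it, and the interaction was 0.56 ± 0.148 (edgeR adjusted p = 0.0158). Ebp, the sterol isomerase, rose in the combined group against nocodazole alone by 0.66 ± 0.167 (edgeR adjusted p = 0.00555). For Dhcr7, the final reductase, that change was 0.36 ± 0.136 (edgeR adjusted p = 0.0515) and was not called, although its interaction of 0.58 ± 0.192 (edgeR adjusted p = 0.0458) was. For Tm7sf2, a sterol C14-reductase, it was 0.26 ± 0.11 (edgeR adjusted p = 0.0811), also not called, and its interaction (0.41 ± 0.156) was not called either. Without combined replicate 1 these were called, the change of Dhcr7 at 0.47 (edgeR adjusted p = 0.00603), that of Tm7sf2 at 0.37 (edgeR adjusted p = 0.00467) and its interaction at 0.52 (edgeR adjusted p = 0.00618). The change of Dhcr7 was also called without DMSO replicate 3 or inhibitor replicate 4 (edgeR adjusted p = 0.0378 and 0.0399), as was the interaction of Tm7sf2 (0.0446 and 0.0484).

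Of the 11 enzyme interactions called, those of Hmgcs1, Fdft1, Msmo1, Hsd17b7 and Sc5d kept their call in all 16 fits that left out 1 library. Those of Acat2, Mvk, Mvd, Fdps, Sqle and Dhcr7 kept it in 5 or 6 of the 16. Each of these 6 lost its call without DMSO replicate 1, 2 or 4, inhibitor replicate 2 or 3, or combined replicate 2, 3 or 4. Without nocodazole replicate 3 or 4 each of them but Mvk lost it, without nocodazole replicate 1 Mvk and Fdps did, without nocodazole replicate 2 Mvk did, and without inhibitor replicate 1 Dhcr7 did. The edgeR adjusted p was 0.0529 to 0.0945 in these cases. Reads of genes that overlap on opposite strands could not be told apart, since the strand setting is not given. Exons of 9 of the 31 genes overlap an opposite-strand gene in GENCODE M21: Cyp51, Fdft1, Ggps1, Hmgcs1, Idi1, Lss, Npc1, Scap and Srebf1.

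In the SREBP circuit, with all 16 libraries, the transcripts of Insig1, Insig2 and Srebf1 were called in at least 1 comparison. Those of Srebf2 and Scap were called in none. Srebf2 (ENSMUSG00000022463), which encodes the main driver of the pathway, had 417, 406, 337 and 388 CPM in the DMSO libraries, 349, 353, 323 and 353 in the nocodazole libraries, 342, 304, 295 and 377 in the inhibitor libraries and 318, 407, 421 and 373 in the combined libraries. The groups overlapped, and the combined libraries held the highest value of all 16. Its change was 0.14 ± 0.0928 (SE, edgeR adjusted p = 0.271) in the combined group against nocodazole alone and -0.03 ± 0.0927 (edgeR adjusted p = 0.885) against DMSO, with an interaction of 0.37 ± 0.131 (edgeR adjusted p = 0.0578). That interaction was called without combined replicate 1, at 0.45 (edgeR adjusted p = 0.00967), without DMSO replicate 3 (0.03) and without inhibitor replicate 4 (0.0229). Without inhibitor replicate 4 Srebf2 was also called lower after the inhibitor alone (edgeR adjusted p = 0.0385). Scap, the escort, lay between 129.5 and 143.9 CPM in all libraries, with log2 changes of -0.01 to 0.06.

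**Figure D3:**
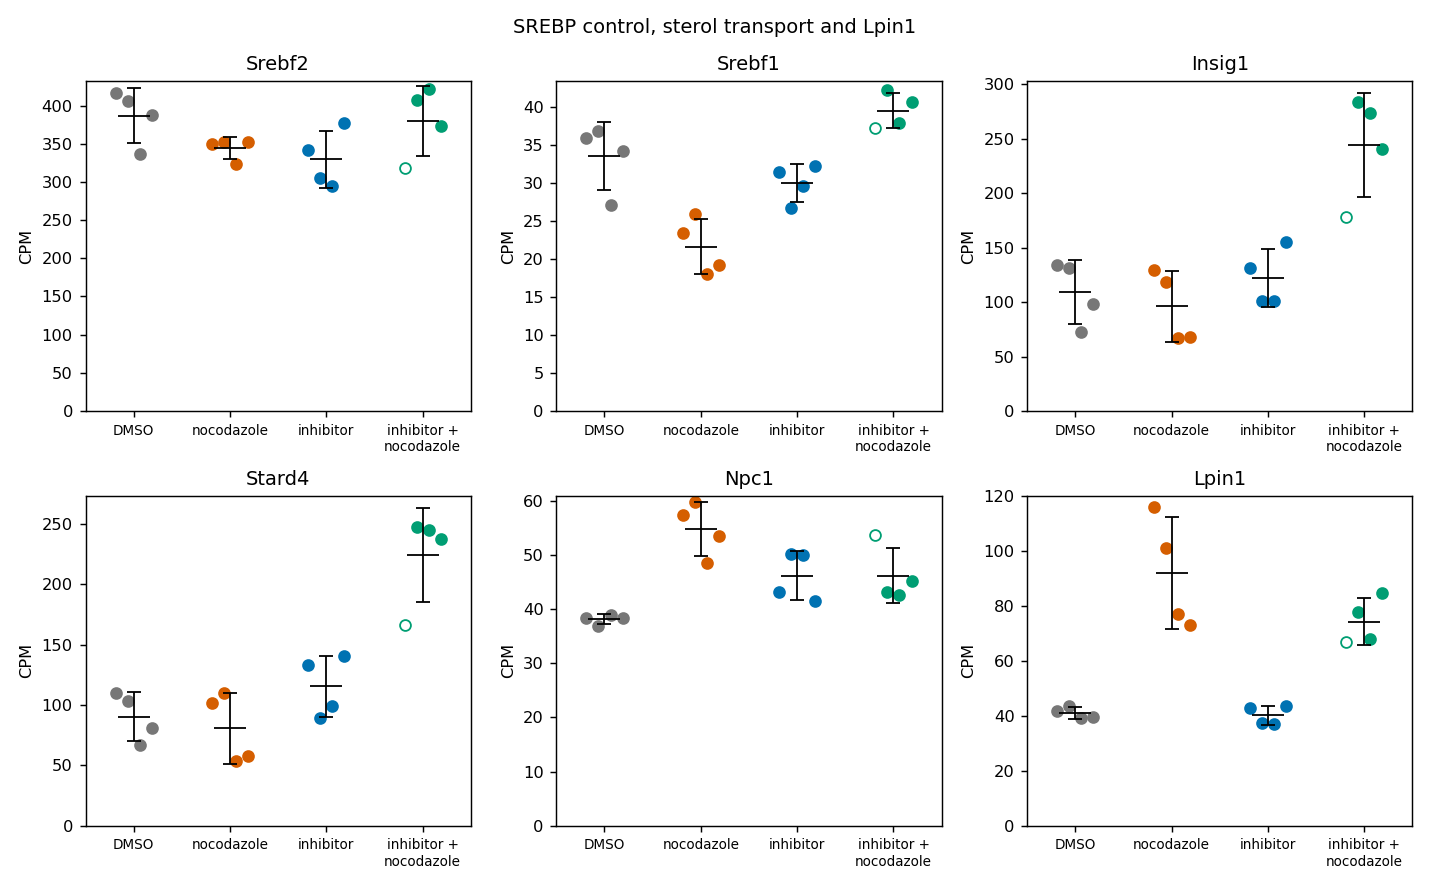
CPM of Srebf2, Srebf1, Insig1, Stard4, Npc1 and Lpin1 in each of the 16 libraries, by group, on axes that start at 0; lines are group means, bars the SD of 4 libraries, and the open point is replicate 1 of the combined group. Insig1 and Stard4 were highest in the combined group, Srebf1 lowest in the nocodazole group, and Lpin1 higher in both groups with nocodazole.

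Srebf1 (ENSMUSG00000020538), which encodes the SREBP form that drives mainly fatty acid genes, had 36.0, 36.9, 27.1 and 34.2 CPM in the DMSO libraries, 23.4, 25.9, 18.1 and 19.2 in the nocodazole libraries, 31.5, 26.7, 29.6 and 32.2 in the inhibitor libraries and 37.3, 42.2, 38.0 and 40.7 in the combined libraries. The nocodazole libraries lay below all others and the combined libraries above all others. It fell after nocodazole alone, at a log2 fold change of -0.63 ± 0.113 (SE, edgeR adjusted p = 0.00036). With the inhibitor present the nocodazole change was 0.40 ± 0.111 (edgeR adjusted p = 0.298), not called, and the interaction was 1.03 ± 0.158 (edgeR adjusted p = 0.000414). The rise from nocodazole to the combined group was 0.87 ± 0.113 (edgeR adjusted p = 1.81e-05). Against DMSO the combined group was at 0.24 (edgeR adjusted p = 0.157), which was not called.

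Insig1 (ENSMUSG00000045294), itself a target of SREBPs, had 134, 131, 72.6 and 98.7 CPM in the DMSO libraries, 129.8, 118, 67.5 and 68.3 in the nocodazole libraries, 131, 101, 101 and 155 in the inhibitor libraries and 178, 284, 273 and 240.3 in the combined libraries. All combined libraries lay above all others, and in both the DMSO and the nocodazole group replicates 1 and 2 were higher than replicates 3 and 4. Insig1 rose in the combined group by 1.34 ± 0.24 (SE, edgeR adjusted p = 0.000375) against nocodazole alone and by 1.16 ± 0.238 (edgeR adjusted p = 0.00345) against DMSO, with an interaction of 1.18 ± 0.335 (edgeR adjusted p = 0.022). Insig2, its counterpart, behaved differently: it rose after nocodazole alone by 0.48 ± 0.0917 (edgeR adjusted p = 0.000623), from 15.6 to 18.0 CPM in DMSO to 22.0 to 24.5 CPM. In the combined group it was lower than in nocodazole alone, at a log2 fold change of -0.39 ± 0.0915 (edgeR adjusted p = 0.00306). Its interaction of -0.37 ± 0.13 (edgeR adjusted p = 0.0545) was not called, but was without combined replicate 1 (0.0381) or 4 (0.0433) or inhibitor replicate 2 (0.0306).

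Among the sterol carriers, Stard4 (ENSMUSG00000024378), a soluble protein that moves cholesterol between membranes and is driven by SREBP2, had 110.3, 103, 66.6 and 80.9 CPM in the DMSO libraries, 101, 110.1, 53.6 and 57.8 in the nocodazole libraries, 133, 89.5, 98.9 and 141 in the inhibitor libraries and 167, 248, 245 and 238 in the combined libraries. The combined libraries lay above all others, with replicate 1 the lowest of them. Stard4 rose by 1.47 ± 0.233 (SE, edgeR adjusted p = 0.00013) against nocodazole alone, the largest value of the 31 genes in that comparison, and by 1.31 ± 0.232 (edgeR adjusted p = 0.0012) against DMSO. The interaction was 1.11 ± 0.325 (edgeR adjusted p = 0.0253). It lost its call without DMSO replicate 1 (0.0511) or 2 (0.0519), inhibitor replicate 2 (0.0561) or 3 (0.0551), or combined replicate 3 (0.0504; all edgeR adjusted p).

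Npc1 (ENSMUSG00000024413), the lysosomal membrane protein that releases cholesterol taken up from outside, had 38.3, 36.9, 39.0 and 38.4 CPM in the DMSO libraries, 57.3, 59.7, 48.4 and 53.5 in the nocodazole libraries, 43.1, 50.1, 49.9 and 41.5 in the inhibitor libraries and 53.7, 43.2, 42.5 and 45.2 in the combined libraries. All treated libraries were above all DMSO libraries. Npc1 rose after nocodazole by 0.52 ± 0.0847 (SE, edgeR adjusted p = 0.000153) and after the inhibitor by 0.27 ± 0.0847 (edgeR adjusted p = 0.0425), but was lower in the combined group than in nocodazole alone, at a log2 fold change of -0.25 ± 0.0843 (edgeR adjusted p = 0.0332). The interaction was -0.52 ± 0.12 (edgeR adjusted p = 0.00703). The call for the inhibitor alone was kept in 4 of 16 fits that left out 1 library: it was lost without any DMSO replicate, nocodazole replicate 1 or 4, inhibitor replicate 1, 2 or 3, or combined replicate 2, 3 or 4 (edgeR adjusted p 0.0525 to 0.138). The call in the combined group against nocodazole was lost without nocodazole replicate 1 or 2 or combined replicate 2, 3 or 4 (edgeR adjusted p 0.079 to 0.104).

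The LXR export genes did not move as a group. Abca1 (ENSMUSG00000015243), which exports cholesterol and phospholipid to apolipoproteins, had 64.3, 64.0, 59.1 and 44.3 CPM in the DMSO libraries, 85.5, 74.2, 82.2 and 97.8 in the nocodazole libraries, 14.8, 25.5, 15.6 and 30.3 in the inhibitor libraries and 28.9, 22.5, 27.0 and 15.1 in the combined libraries. The 8 libraries with inhibitor lay below the 8 without it, and the nocodazole libraries lay above the DMSO libraries. Abca1 fell with the inhibitor, with a log2 fold change of -1.42 ± 0.221 (SE, edgeR adjusted p = 0.000741) without nocodazole and of -1.86 ± 0.223 (edgeR adjusted p = 8.07e-06) with it, to 0.373 and 0.275 times the level without inhibitor. The call was kept in all 16 fits without 1 library in both. After nocodazole alone the change was 0.55 ± 0.214 (edgeR adjusted p = 0.0523), which was not called. It was called without inhibitor replicate 1 (edgeR adjusted p = 0.0471), 3 (0.0461) or 4 (0.0337), or without combined replicate 1 (0.0422) or 4 (0.033). With the inhibitor present, nocodazole changed it by 0.12 ± 0.221 (edgeR adjusted p = 0.999), and the interaction of -0.44 ± 0.308 (edgeR adjusted p = 0.339) was not called. The glial marker Erbb3 and the fibroblast marker Dcn had the same order of groups at levels near 0, at most 0.907 and 4.93 CPM. In the combined group against nocodazole alone they changed, at a log2 fold change of -1.84 ± 0.313 (edgeR adjusted p = 0.000253) and -2.28 ± 0.445 (edgeR adjusted p = 0.000811). The summed fibroblast markers also followed it with nocodazole (5.35 to 8.07 CPM, against 1.4 to 2.45 in the combined group), but without nocodazole their ranges in DMSO and inhibitor overlapped (2.11 to 5.07 and 2.04 to 4.39 CPM). Their part in the Abca1 values was not tested.

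Abcg1 (ENSMUSG00000024030), which moves sterol to lipoproteins and between membranes, had 78.9, 83.4, 70.3 and 74.7 CPM in the DMSO libraries, 41.2, 49.6, 31.7 and 44.2 in the nocodazole libraries, 64.5, 63.1, 64.2 and 68.0 in the inhibitor libraries and 59.1, 54.8, 60.5 and 54.9 in the combined libraries. No groups overlapped: DMSO was highest, then inhibitor, then the combined group, then nocodazole. Abcg1 fell after nocodazole, at a log2 fold change of -0.88 ± 0.0983 (SE, edgeR adjusted p = 4.1e-06), rose from nocodazole to the combined group by 0.46 ± 0.0981 (edgeR adjusted p = 0.00164), and was lower in the combined group than in DMSO, at a log2 fold change of -0.42 ± 0.0973 (edgeR adjusted p = 0.00732). Its interaction was 0.70 ± 0.138 (edgeR adjusted p = 0.00257). The inhibitor alone gave -0.24 ± 0.097 (edgeR adjusted p = 0.11), which was not called. It was called without nocodazole replicate 3 (edgeR adjusted p = 0.0175).

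Mylip (ENSMUSG00000038175) had 2.43, 2.78, 2.67 and 2.73 CPM in the DMSO libraries, 3.14, 2.39, 3.99 and 2.83 in the nocodazole libraries, 2.56, 2.24, 2.98 and 3.04 in the inhibitor libraries and 2.48, 2.91, 3.29 and 3.00 in the combined libraries. The 4 groups overlapped, and it was called in no comparison, with log2 changes from -0.11 to 0.22. The median log2 change of the 20 enzymes minus that of these 3 genes was -0.25 for nocodazole without inhibitor, 0.26 for inhibitor without nocodazole, 0.37 for nocodazole with inhibitor and 0.75 for inhibitor with nocodazole. It was 0.67 for the interaction. With 3 genes the median is the value of a single gene, so it hides that Abca1 and Abcg1 moved in opposite directions when the inhibitor was added to nocodazole.

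Lpin1 (ENSMUSG00000020593), a phosphatidate phosphatase of glycerolipid synthesis that also restrains SREBP activity in the nucleus, followed nocodazole with or without the inhibitor: 41.6, 43.7, 39.1 and 39.6 CPM in the DMSO libraries, 116, 101, 77.2 and 73.2 in the nocodazole libraries, 42.8, 37.3, 37.0 and 43.5 in the inhibitor libraries and 66.8, 77.7, 68.0 and 84.8 in the combined libraries. The 8 nocodazole-treated libraries were above the 8 others. Lpin1 rose by 1.17 ± 0.124 (SE, edgeR adjusted p = 2.66e-06) without the inhibitor and by 0.89 ± 0.124 (edgeR adjusted p = 0.00725) with it. The interaction of -0.28 ± 0.174 (edgeR adjusted p = 0.277) was not called. The second call was lost without inhibitor replicate 3 (edgeR adjusted p = 0.0537). Lpin1 and Erg28 were 2 of the 16 genes called in the whole table for nocodazole in the presence of the inhibitor.

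Leaving out replicate 1 of the combined group moved the comparisons that use that group. For nocodazole in the presence of the inhibitor, the enzymes called went from 1 to 11 of 20, their median change from 0.47 to 0.61, and the calls among all 31 genes from 2 to 12, where 0.452% of all genes were called (0.426% higher and 0.0257% lower). Among the 11 were Mvd at 1.01 (edgeR adjusted p = 0.00564), Cyp51 at 0.80 (edgeR adjusted p = 0.00564), Ebp at 0.91 (edgeR adjusted p = 0.00216) and Sc5d at 0.55 (edgeR adjusted p = 0.0145). Hmgcs1, at 0.44 (edgeR adjusted p = 0.316), and Insig1, at 1.12 (edgeR adjusted p = 0.05), which just missed the threshold, were called in neither fit. In the interaction 17 enzymes were called in place of 11 (Idi1, Lss, Cyp51, Tm7sf2, Nsdhl and Ebp were added), where 26.8% of all genes were called (14.1% above and 12.7% below). In the combined group against nocodazole 18 were called higher in place of 16, and Pmvk, the 1 called lower, was no longer called, where 37.1% of all genes were called (19.3% higher and 17.8% lower). Against DMSO 16 were called higher in place of 13, with a median of 0.59 in place of 0.47. The share of all genes called was not counted for that fit. The 3 LXR export genes gave no call in either fit for nocodazole in the presence of the inhibitor: without that library Abca1 was at -0.01 (edgeR adjusted p = 0.997), Abcg1 at -0.20 (edgeR adjusted p = 0.713) and Mylip at 0.18 (edgeR adjusted p = 0.842). The median of the enzymes minus that of the export genes went from 0.37 to 0.62 there.

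**Figure D4:**
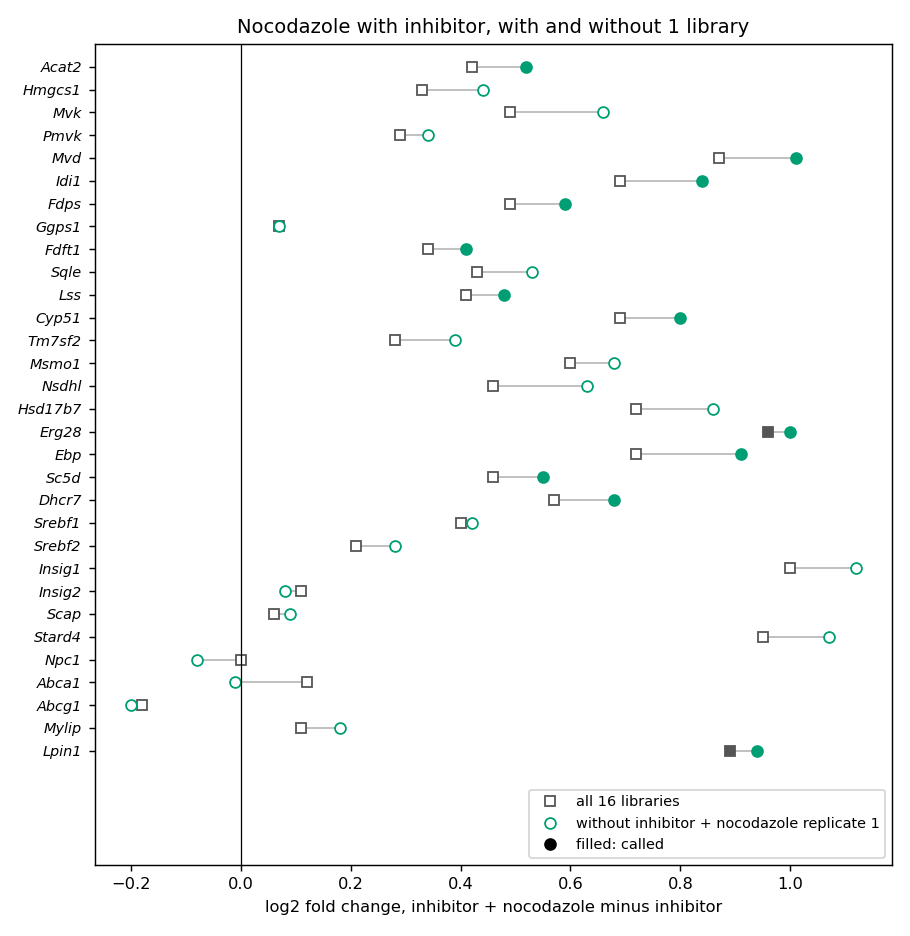
Log2 fold change of each of the 31 genes for inhibitor plus nocodazole against inhibitor, with all 16 libraries (squares) and without replicate 1 of the combined group (circles); filled symbols are called genes. The enzyme values all move to the right or stay in place without that library, and 11 of the 20 are then called.

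Other genes of sterol and lipid metabolism were read from 5 lists. Their counts are read against the shares of all genes. After nocodazole 18.6% of all genes were called higher and 19% lower, and after the inhibitor 5.78% and 7.24%. In the combined group against nocodazole alone the shares were 17.7% and 16.2%. In the interaction 9.52% were called above 0 and 9.2% below. Fatty acid synthesis genes, many of them SREBP targets too, gave the counts nearest to those of the cholesterol enzymes. Of 16 genes, 13 were called higher and 1 lower in the combined group against nocodazole alone, with a median of 0.40. Scd1, a stearoyl-CoA desaturase, rose by 1.39 ± 0.226 (edgeR adjusted p = 0.000165), Scd2, its main brain form, by 0.63 ± 0.116 (edgeR adjusted p = 0.000534), Elovl5, a fatty acid elongase, by 0.52 ± 0.093 (edgeR adjusted p = 0.00041), and Mid1ip1, an activator of acetyl-CoA carboxylase, by 0.40 ± 0.0651 (edgeR adjusted p = 0.000162). Acacb, the mitochondrial acetyl-CoA carboxylase, was the 1 called lower, at a log2 fold change of -1.61 ± 0.383 (edgeR adjusted p = 0.00365). Its levels were near 0, at 3 to 32 counts and 0.0826 to 1.04 CPM over all 16 libraries. In the interaction 6 of 16 were called above 0, and 11 without combined replicate 1, where 9.52% and 14.1% of all genes were. The lowest p among the 6 were those of Scd2 (0.65 ± 0.164 (edgeR adjusted p = 0.0119)), Elovl5 (0.50 ± 0.131 (edgeR adjusted p = 0.014)), Aacs, which activates acetoacetate (0.51 ± 0.14 (edgeR adjusted p = 0.0189)), and Acaca, the cytosolic acetyl-CoA carboxylase (0.38 ± 0.113 (edgeR adjusted p = 0.0292)). After the inhibitor alone Mid1ip1 was the 1 called, at 0.21 ± 0.0651 (edgeR adjusted p = 0.0433). After nocodazole alone 3 were called higher (Acacb at 1.04, the elongase gene Elovl1 at 0.57 and the desaturase gene Fads1 at 0.28) and 2 lower (Scd2 at -0.33 and Gpam, which starts glycerolipid synthesis, at -0.22). For nocodazole in the presence of the inhibitor none was called by edgeR, where 0.0835% of all genes were. At an unadjusted p below 0.05, 14 were higher and 0 lower, a share not counted over all genes. Without combined replicate 1, 6 were called higher, where 0.426% of all genes were.

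The isoprenoid branches use the same precursors for dolichol, ubiquinone and prenyl groups. Over all genes 17.7% were called higher in the combined group against nocodazole alone and 19% lower after nocodazole. After the inhibitor 7.24% were called lower, and in the interaction 9.52% above 0. Of 14 genes, 1 was called higher in the combined group against nocodazole alone: Icmt, which methylates prenylated proteins, at 0.31 ± 0.0629 (edgeR adjusted p = 0.0011). Icmt and Fnta, a farnesyltransferase subunit, were the 2 called lower after nocodazole, at -0.36 ± 0.0629 (edgeR adjusted p = 0.000269) and -0.24 ± 0.072 (edgeR adjusted p = 0.0158). Fnta was also the 1 called after the inhibitor, at -0.33 ± 0.0721 (edgeR adjusted p = 0.00797), and Icmt the 1 called in the interaction, at 0.40 ± 0.0889 (edgeR adjusted p = 0.00552). The 2 of 14 after nocodazole, the 1 after the inhibitor and the 1 in the interaction lay near the shares of all genes. Without combined replicate 1, Srd5a3, the polyprenol reductase of dolichol synthesis, was added in the comparison with the combined group, after nocodazole and in the interaction.

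Of 11 genes of SREBP processing and sterol-dependent degradation, 4 were called higher and 1 lower in the combined group against nocodazole alone, and 2 lower after nocodazole. Over all genes 17.7% were called higher and 16.2% lower in the first comparison, and 9.52% above 0 in the interaction. After the inhibitor 7.24% were called lower. After nocodazole 19% were called lower, and the 2 of 11 lay near that share. The 2 were Mbtps1, the protease that makes the first cut of SREBP, at -0.31 ± 0.0477 (edgeR adjusted p = 8.42e-05) and Rnf145, a ubiquitin ligase of the endoplasmic reticulum, at -0.52 ± 0.0821 (edgeR adjusted p = 0.00011). Both were called higher from nocodazole to the combined group, at 0.13 and 0.50. Tmem97, a membrane protein that binds NPC1, rose there by 0.69 ± 0.136 (edgeR adjusted p = 0.000895). The other calls were Rnf139, a ubiquitin ligase, higher by 0.16, and Faf2, an adaptor of protein degradation, lower at -0.15. In the interaction Rnf145 (0.44 ± 0.116 (edgeR adjusted p = 0.0156)), Mbtps1 (0.21 ± 0.0674 (edgeR adjusted p = 0.0421)) and Tmem97 (0.58 ± 0.191 (edgeR adjusted p = 0.0443)) were called above 0. Vcp, an ATPase that extracts proteins from the membrane for degradation, was the 1 called after the inhibitor, at -0.32 ± 0.0771 (edgeR adjusted p = 0.0119). Without combined replicate 1, 4 were called lower after nocodazole (Tmem97 and Vcp were added) and 1 higher (Pgrmc1, a membrane heme-binding protein). In that fit 7770 of 19479 genes were called after nocodazole.

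Of 9 LXR receptors, partners and further targets, 2 were called lower after nocodazole: Abcg4, a neuronal relative of Abcg1, at -0.68 ± 0.0628 (edgeR adjusted p = 6.52e-07), and Arl4c, a small GTPase, at -0.24 ± 0.0594 (edgeR adjusted p = 0.00426). Over all genes 19% were called lower there, and the 2 of 9 lay near that share. The inhibitor gave 7.24% lower, the combined group against nocodazole 17.7% higher, and the interaction 9.52% above 0. In the inhibitor group Abcg4 (-0.22) and the receptor partner Rxra (-0.39 ± 0.0961) were the 2 called lower. From nocodazole to the combined group Lpcat3, a lysophospholipid acyltransferase, rose by 1.18 ± 0.151 (edgeR adjusted p = 1.54e-05), Abcg4 by 0.34 ± 0.0627 (edgeR adjusted p = 0.000467) and Arl4c by 0.16 ± 0.0594 (edgeR adjusted p = 0.0412). In the interaction Abcg4 (0.56 ± 0.0884 (edgeR adjusted p = 0.000473)) and Lpcat3 (0.90 ± 0.212 (edgeR adjusted p = 0.00775)) were called above 0. Without combined replicate 1, Arl4c and Rxra were added above 0 and Pltp, the phospholipid transfer protein, was called below 0. Levels of Pltp were near 0, at 8 to 53 counts and 0.248 to 1.27 CPM over all 16 libraries. With all 16 libraries the LXR genes Nr1h2 and Nr1h3 were called in no comparison.

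Of 23 genes of sterol uptake, storage and turnover, 21 were tested. After nocodazole 7 were called higher and 4 lower, after the inhibitor 4 higher, and in the combined group against nocodazole 7 higher and 1 lower. Over all genes 18.6% were called higher and 19% lower after nocodazole, and the 4 of 21 called lower lay near that share. After the inhibitor 5.78% were called higher, and in the combined group against nocodazole 17.7% higher and 16.2% lower. Scarb2 and Nceh1 rose after the inhibitor, at 0.32 ± 0.0487 (edgeR adjusted p = 0.000601) and 0.31 ± 0.0784 (edgeR adjusted p = 0.0175). Nceh1, a cholesteryl ester hydrolase, also rose after nocodazole by 0.43 ± 0.0785 (edgeR adjusted p = 0.000426), and Scarb2, a lysosomal membrane protein, rose from nocodazole to the combined group by 0.25 ± 0.0486 (edgeR adjusted p = 0.000797). Npc2, the soluble partner of NPC1, rose by 0.36 ± 0.0526 (edgeR adjusted p = 5.18e-05) after nocodazole and by 0.27 ± 0.0526 (edgeR adjusted p = 0.00357) after the inhibitor. Vldlr, a lipoprotein receptor, rose by 0.31 ± 0.0693 (edgeR adjusted p = 0.00232) after nocodazole, 0.49 ± 0.0693 (edgeR adjusted p = 0.000398) after the inhibitor and 0.32 ± 0.0691 (edgeR adjusted p = 0.002) from nocodazole to the combined group. Lipa, the lysosomal lipase that frees cholesterol from its esters, fell after nocodazole (-0.81 ± 0.151, edgeR adjusted p = 0.000544) and rose by 0.81 ± 0.151 (edgeR adjusted p = 0.000562) from nocodazole to the combined group. The others called lower after nocodazole were Osbpl5 (-0.35) and Osbpl8 (-0.17), which exchange lipids between membranes, and the transporter gene Abca2 (-0.31). Osbpl2, of the same exchange family, rose after nocodazole by 0.40 ± 0.0602 (edgeR adjusted p = 7.32e-05) and was the 1 called lower from nocodazole to the combined group, at -0.25 (edgeR adjusted p = 0.00442). In the interaction Lipa was called above 0, at 0.79 ± 0.212 (edgeR adjusted p = 0.0171), and Nceh1 below 0, at -0.41 ± 0.111 (edgeR adjusted p = 0.0171), and without combined replicate 1 there were 4 above and 3 below. The shares of all genes there were 9.52% above and 9.2% below, and 14.1% and 12.7% without that replicate.

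**Figure D5:**
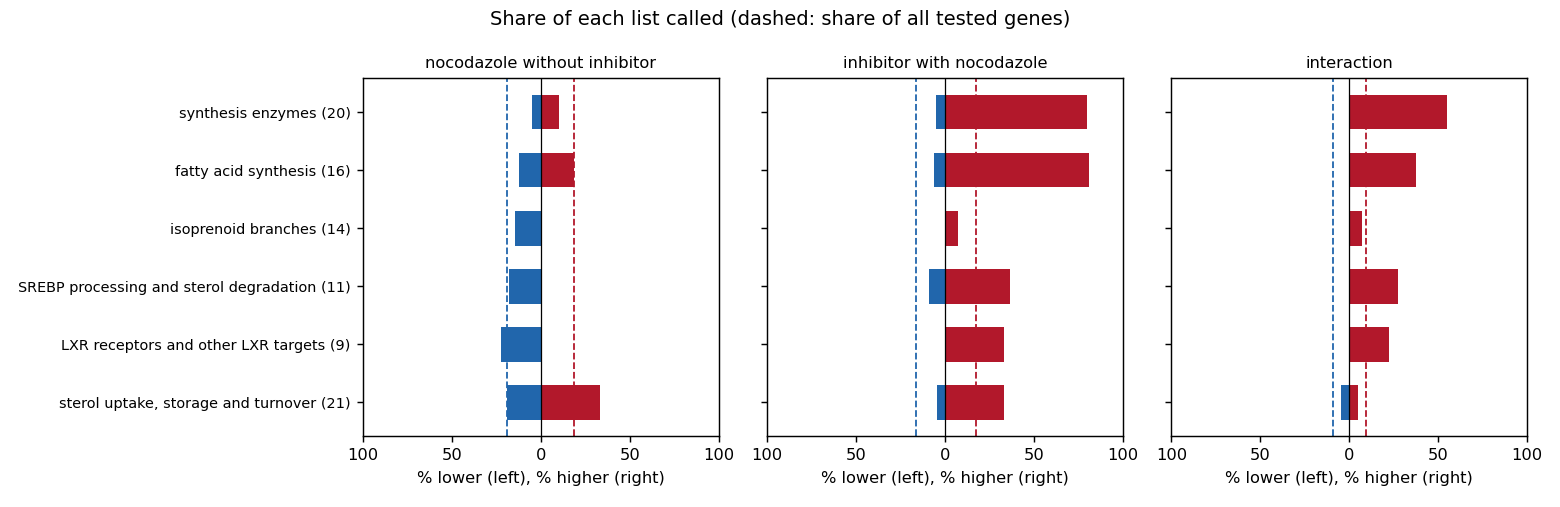
Percent of tested genes called higher (red, to the right) and lower (blue, to the left) for nocodazole without inhibitor, inhibitor with nocodazole and the interaction, for the 20 synthesis enzymes and the 5 other pathway lists; dashed lines are the shares of all 19156 genes. In the combined group against nocodazole alone, 16 of 20 enzymes and 13 of 16 fatty acid genes were called higher, beside 17.7% of all genes.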

How the data were processed

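RNA of 16 libraries was sequenced after removal of ribosomal RNA, per the labels' protocols. The authors deposited whole-number counts per Ensembl gene identifier, made with STAR and Salmon on GRCm39 per the submitters' processing notes. The steps that made the numbers, strand use and the treatment of shared reads are not given in the sources used here. Of 55356 identifiers, 52080 (94.1%) took a symbol from GENCODE M21, so no gene coordinates are given.

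Columns were assigned to samples by name. No library was a copy of another: over 24 pairs within groups, chi-square divided by its degrees of freedom ran from 8.28 to 51.3. In R 4.3.3, edgeR 4.0.16 (with limma 3.58.1) scaled libraries by TMM (factors 0.9595 to 1.064), filterByExpr left 19156 genes, and a quasi-likelihood model with 1 mean per group was fitted and first tested on simulated data. Log2 CPM for averages used a prior count of 2. The 5 designed comparisons had 1 added after the data were seen, the combined group against DMSO. Fits without each library were run, and those with other scaling, no filter, DESeq2 1.42.0, the replicate block and only the groups compared are described in the closing section.

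The 31 genes and all lists were chosen with earlier results of these data known, and some genes of other lists are not reported here. Full values are given for the LXR genes, Srebf1, Srebf2, Insig1, Stard4, Npc1, Lpin1, the 6 enzymes with the lowest p for nocodazole, and the 4 with the lowest p for the inhibitor or the interaction. From the other lists, up to 4 called genes with the lowest adjusted p are named per designed comparison, and each called gene where 5 or fewer were; genes named only from fits without a library were chosen after their values were seen. Members were matched by symbol to identifiers, and promoters to RefSeq on GRCm38.p6.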

Additional observations from a re-analysis of the deposited data

Results flagged for a closer look

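Within groups of 4 libraries, 9 of 124 combinations of a gene and a group had a library whose gap to its nearest neighbour exceeded Dixon's 95% critical value for 4 values, where chance flags about 1 in 20, or 6.2 combinations. For 6 of the 9 it was the low value of combined replicate 1: Acat2 at 298 CPM, Mvk at 101 CPM, Pmvk at 55.2 CPM, Mvd at 160 CPM, Ebp at 22.7 CPM and Stard4 at 167 CPM. The highest libraries of that group were at 420, 186, 65.8, 259, 44.2 and 248 CPM for the same genes. The other 3 were Acat2 in DMSO replicate 3 at 260 CPM, Srebf2 in nocodazole replicate 3 at 323 CPM and Scap in DMSO replicate 4 at 140 CPM.

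The nocodazole change was called different with and without the inhibitor for 16 of the 31 genes, by the interaction term of the edgeR fit. Over all genes 18.7% were called there. The calls of Acat2, Mvk, Mvd, Fdps, Sqle, Dhcr7 and Stard4 were lost in 5 to 11 of the 16 fits that left out 1 library. The log2 difference was 0.47 for Acat2, 0.74 for Hmgcs1, 0.82 for Mvk, 0.79 for Mvd, 0.47 for Fdps, 0.45 for Fdft1, 0.56 for Sqle, 0.79 for Msmo1, 1.03 for Hsd17b7, 0.56 for Sc5d and 0.58 for Dhcr7 among the enzymes. It was 1.03 for Srebf1, 1.18 for Insig1, 1.11 for Stard4, -0.52 for Npc1 and 0.70 for Abcg1.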

How the results depend on the processing

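Over single genes and settings, 3149 of 3379 values were counted as the same. These kept a call in the same direction, or were called in neither fit and moved by at most 1 SE, whatever their sign. Of the others 123 lost a call, 82 gained one, 25 moved by over 1 SE with no call, and no called value changed sign. The enzyme count for inhibitor with nocodazole, 17 of 20, was 16 to 18 in the fits without 1 library. Of all genes, 6494 were called in the main fit and 5484 to 7218 in those fits. For nocodazole without inhibitor the count of 3 became 1 to 3 without 1 library, and 5 without the 3 inhibitor-treated libraries highest in mitochondrial share. The calls over all genes went from 7187 to between 6160 and 7770 without 1 library, and to 8005 without those 3. For inhibitor without nocodazole the count of 2 became 1 with no filter, 1 to 2 without 1 library and 1 without those 3. The 2494 calls over all genes became 1869 with no filter, 1242 to 3087 without 1 library and 614 without those 3. For nocodazole with inhibitor the count of 1 became 3 with no filter, 12 with DESeq2 (where 127 genes were called in all), 2 without those 3, and 1 to 11 without 1 library (11 without combined replicate 1). The 16 calls over all genes became 28 with no filter, 21 without those 3 and 3 to 88 without 1 library (88 without combined replicate 1). There the median of the enzymes minus that of the export genes, 0.37, became 0.31 to 0.62. The interaction count of 11 became 5 to 17 without 1 library (17 without combined replicate 1), and the replicate block gave 6. The 3587 interaction calls over all genes became 2607 to 5218 without 1 library (5218 without combined replicate 1) and 3457 with the block. The replicate numbers did not pair the libraries: 8 of 24 same-number correlations were over 0.1, they ran from -0.40 to 0.23, and 3 of 16 libraries correlated best with their own number. Apart from the filter, DESeq2, the block and the fits without 1 library as given, the planned settings moved no enzyme count by over 1.5 times. The causes were not tested.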
